A study of Homo sapiens with 8 samples.

Results

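The ubiquitin-specific proteases (USPs) are the largest family of human deubiquitinases, and their transcripts were followed here in 2 breast cancer cell lines under combined stress, with and without knockdown of XBP1. Members were all genes whose symbol is USP followed by a number and at most 1 letter and that had a probe set assigned to that gene alone. This gave 46 of the 19775 genes measured. The family was selected on measured values, with the changes across the 4 groups of line and hairpin in view, so its counts are descriptions. Where a gene had several such probe sets, the one with the highest mean over the 8 arrays represented it, and 35 of the 46 members had more than 1. Of the 51 protein-coding genes of the RefSeq table that carry such a symbol, 46 were therefore represented. USP6, USP10, USP32 and USP50 had no probe set of their own in the annotation used here, and USP15 shared all of its probe sets with a microRNA gene.

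T47D is a luminal, oestrogen receptor-positive line, and MDA-MB-231 is a triple-negative line with mesenchymal features. Cells of each line had received, by lentivirus, either a control shRNA (shCtrl) or one directed at XBP1 (shXBP1) and were kept in puromycin. Every sample, controls included, was then held for 24 h at 0.1% O2 in DMEM that lacked glucose. The 4 groups are T47D shCtrl, T47D shXBP1, MDA-MB-231 shCtrl and MDA-MB-231 shXBP1, with 2 arrays each. The labels do not give the hairpin sequence, and unstressed cells were not analysed here. XBP1 drives transcription in the unfolded protein response, and the design compares cells with and without its knockdown.

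USPs cut ubiquitin from proteins or trim ubiquitin chains with a cysteine protease domain, and so oppose ubiquitin ligases. Members differ in where they act: on histones and DNA repair factors in the nucleus, at the proteasome, on endosomes, on the membranes of the ER and mitochondria, and on signalling proteins. Ubiquitin also marks misfolded proteins that leave the ER for degradation, a process that XBP1 targets serve. A change in transcript level says nothing of protein level or enzyme activity.

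Reference promoter sequences are shown for the 4 members that passed the test in both lines and for USP38, which fell most in T47D. Each is the 250 bases before the annotated start furthest upstream (RefSeq, GRCh38.p14), written 5′ to 3′ on the strand of the gene. Capitals mark ACGTG or its reverse complement CACGT, letters shared by binding motifs of XBP1 and of the hypoxia-inducible factors.
USP54: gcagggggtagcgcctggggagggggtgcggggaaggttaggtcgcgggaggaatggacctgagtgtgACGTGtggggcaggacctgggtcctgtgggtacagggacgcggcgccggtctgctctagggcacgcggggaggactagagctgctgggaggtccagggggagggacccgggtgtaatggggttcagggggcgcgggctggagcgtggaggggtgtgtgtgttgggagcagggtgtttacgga
USP25: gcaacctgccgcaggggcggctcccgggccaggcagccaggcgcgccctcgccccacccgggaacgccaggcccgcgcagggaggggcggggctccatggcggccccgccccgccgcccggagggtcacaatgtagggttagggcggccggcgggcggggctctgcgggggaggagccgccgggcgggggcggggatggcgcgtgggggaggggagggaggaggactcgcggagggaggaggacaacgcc
USP34: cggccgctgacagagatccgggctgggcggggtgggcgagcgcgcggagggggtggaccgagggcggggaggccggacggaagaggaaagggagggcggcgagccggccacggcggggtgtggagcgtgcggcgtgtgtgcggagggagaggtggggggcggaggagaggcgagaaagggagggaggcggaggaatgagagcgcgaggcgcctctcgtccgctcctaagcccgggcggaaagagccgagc
USP36: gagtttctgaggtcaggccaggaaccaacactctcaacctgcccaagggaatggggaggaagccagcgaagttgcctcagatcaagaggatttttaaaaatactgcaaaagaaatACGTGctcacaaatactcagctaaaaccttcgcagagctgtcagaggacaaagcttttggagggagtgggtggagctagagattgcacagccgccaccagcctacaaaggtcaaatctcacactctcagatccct
USP38: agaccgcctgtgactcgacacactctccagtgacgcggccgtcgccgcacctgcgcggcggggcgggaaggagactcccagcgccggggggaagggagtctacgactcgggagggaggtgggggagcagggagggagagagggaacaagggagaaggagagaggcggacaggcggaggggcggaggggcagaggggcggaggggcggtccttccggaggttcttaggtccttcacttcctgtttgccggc

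The USP54 sequence lies at chr10:73625642-73625891 (minus strand), USP25 at chr21:15729732-15729981 (plus), USP34 at chr2:61471088-61471337 (minus), USP36 at chr17:78841440-78841689 (minus) and USP38 at chr4:143184667-143184916 (plus). The table lists 4 starts for USP54 and 2 for USP36. ACGTG stood 182 bases before the start of USP54 and 135 bases before that of USP36, and these letters were not in the other 3 windows. Of the 34 members with a sequence, 6 (17.6%) held ACGTG on either strand: USP3, USP5, USP28, USP36, USP39 and USP54. In all 27305 genes with a sequence the share was 18.6%. The longer unfolded protein response motif TGACGTGG, which contains ACGTG, was in 0 member windows and in 0.685% of all windows. The ER stress element, in which 9 bases of any kind part CCAAT from CCACG, was in 0 member windows and in 0.0769% of all. The shorter CCAAT, part of that element, was in 9 of 34 (26.5%) against 33.0% of all.

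Each array held 54675 probe sets, and array medians lay between 5.87 and 5.91 on the log2 scale. Replicates correlated at 0.996 to 0.998 across genes. The labels call the replicates biological without saying whether they were separate infections or cultures, so the p-values measure the spread between these samples only. XBP1 read 12.49 and 10.76 on average with shCtrl in T47D and MDA-MB-231, and fell by 5.15 and 3.85. In MDA-MB-231 shCtrl all 8 luminal markers were lower than in T47D shCtrl and 6 of 7 mesenchymal markers were higher, with FN1 lower. Changes below are log2 differences with the standard error (SE) of limma, a moderated linear model, and p-values adjusted over all 19775 genes; a gene was called changed at an adjusted p under 0.05. Levels of different genes are not compared, since probe sets differ in brightness.

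In T47D, 15 USP genes rose after XBP1 knockdown and 3 fell, while 28 did not pass. Across all genes tested 29.1% were called, 15.5% up and 13.5% down, against 39.1% of the USP genes. The median change of the 46 members was 0.159, beside -0.016 for all genes tested. USP42 and USP54 rose most, by 3.58-fold and 3.52-fold, and USP38 and USP39 fell. In such bulk RNA, fewer cells with a transcript and less of it per cell cannot be told apart. The shCtrl and shXBP1 arrays did not overlap for 34 of the 46 members, beside 64.1% of all genes.

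**Figure D1:**
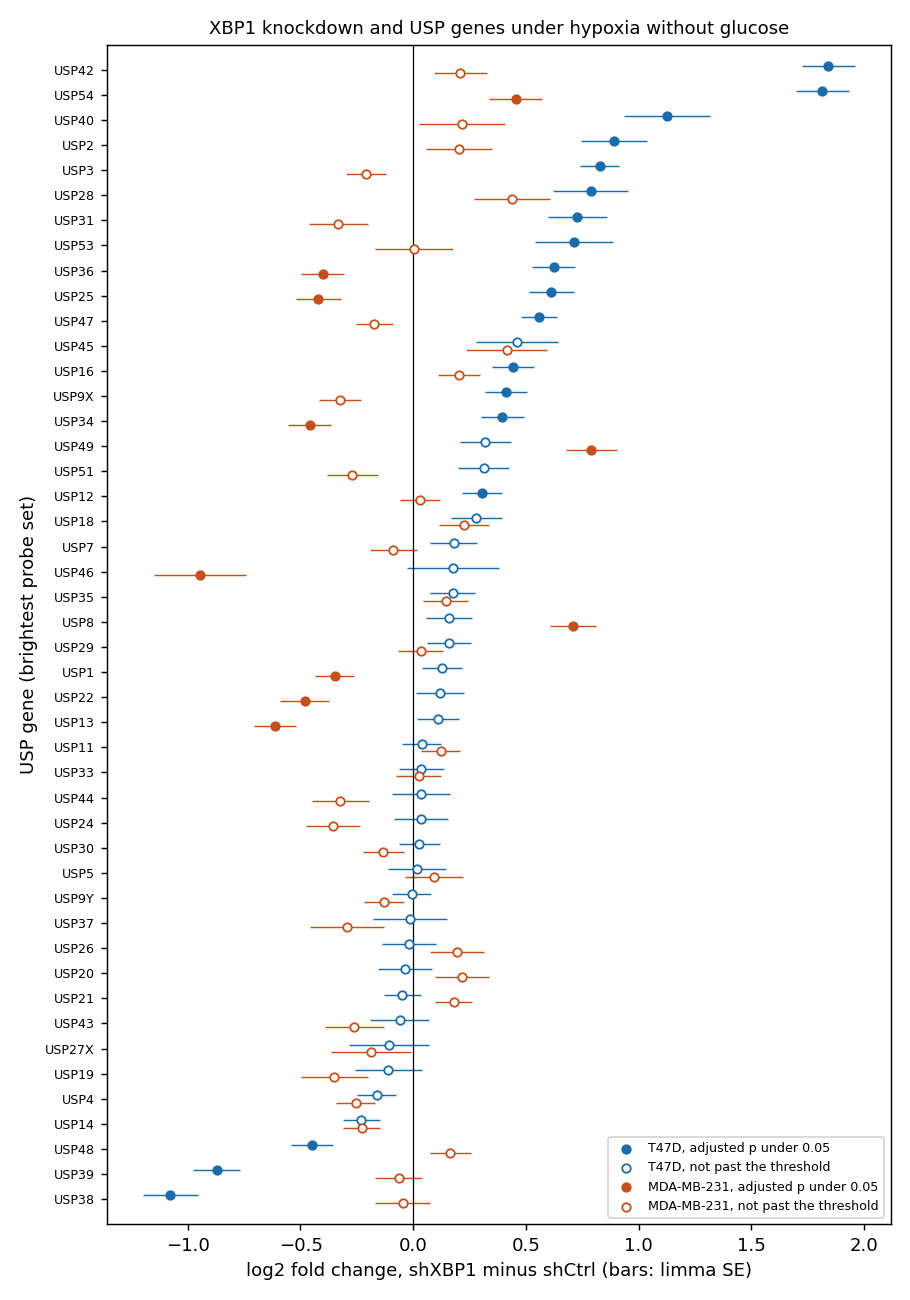
Log2 fold change of each of the 46 USP genes after XBP1 knockdown, ordered by the change in T47D, with limma standard errors as bars (x axis, shXBP1 minus shCtrl; 2 arrays per group). Filled points have an adjusted p under 0.05: USP42 and USP54 stand to the right in T47D at 1.84 and 1.81, and USP25, USP34 and USP36 have filled points on opposite sides of 0 in the 2 lines.

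Among the 11 members that act mainly on histones or in the nucleus, 4 rose in T47D and 0 fell, with a median of 0.313 and 6 at an unadjusted p under 0.05 in limma. The share called was 36.4%, beside 29.1% of all genes tested. USP42, which removes ubiquitin from p53 and from histones, read 8.13 and 8.16 on the shCtrl arrays and 10.01 and 9.96 on the shXBP1 arrays. The change was 1.84 (SE 0.12, adjusted p = 5.13e-05), or 3.58-fold, and both knockdown arrays stood far above both controls. USP3, a histone H2A deubiquitinase of the DNA damage response, read 10.32 on both shCtrl arrays against 11.10 and 11.18, a rise of 0.83 (SE 0.09, adjusted p = 0.000337). The nucleolar enzyme gene USP36 went from 9.70 and 9.69 to 10.36 and 10.28 (0.62, SE 0.10, adjusted p = 0.00205). USP16, another H2A deubiquitinase, rose by 0.44 (adjusted p = 0.00887). USP22, the catalytic subunit of the deubiquitinating module of the SAGA coactivator, was at 0.12 (adjusted p = 0.489), and USP7, which acts on MDM2 and p53, at 0.18 (adjusted p = 0.271). The other members of this group lay between -0.11 (USP27X) and 0.32 (USP49) and did not pass.

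Of 9 members tied to DNA repair and the cell cycle, 3 rose in T47D and 1 fell, or 44.4% beside 29.1% of all genes tested. USP28, which stabilises MYC, read 7.57 and 7.79 with shCtrl and 8.49 and 8.44 with shXBP1 (0.79, SE 0.17, adjusted p = 0.00944). USP47, which acts on a DNA polymerase of base excision repair, went from 10.66 and 10.65 to 11.19 and 11.23 (0.56, SE 0.08, adjusted p = 0.0016). For both genes the 2 groups were clearly apart. USP12, one of the enzymes activated by the WD-repeat protein WDR48, rose by 0.31 (adjusted p = 0.0361). USP48 fell from 9.48 and 9.61 to 9.05 and 9.13 (-0.45, SE 0.09, adjusted p = 0.00809), and another of its probe sets rose. USP1, which acts on FANCD2 and PCNA, was at 0.13 (adjusted p = 0.350).

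Of 7 measured members of membranes, endosomes, ER and mitochondria, 2 rose and 0 fell in T47D (2 at an unadjusted p under 0.05 in limma). The share called, 28.6%, was close to the 29.1% of all genes tested. USP2 read 5.73 and 6.03 with shCtrl and 6.76 and 6.78 with shXBP1, a rise of 0.89 (SE 0.15, adjusted p = 0.0028). Its control level is near the median of all probe sets, where such arrays understate folds. USP25, an enzyme linked to ER-associated degradation, went from 10.42 and 10.40 to 11.04 and 10.99 (0.61, SE 0.10, adjusted p = 0.00272). The remaining 5 lay between -0.11 and 0.16 on their brightest probe sets and did not pass: USP8 of endosomes, USP19 of the ER membrane, USP30 of the mitochondrial outer membrane, and USP20 and USP33, which bind the von Hippel-Lindau protein.

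Of 10 measured members grouped under signalling, 4 rose and 1 fell in T47D, or 50% beside 29.1% of all genes tested. USP40 read 6.53 and 6.79 with shCtrl and 7.85 and 7.71 with shXBP1, a rise of 1.12 (SE 0.19, adjusted p = 0.00321). USP31 went from 7.86 and 7.79 to 8.64 and 8.47 (0.73, SE 0.13, adjusted p = 0.00423). USP9X, which stabilises the survival protein MCL1, rose by 0.41 (adjusted p = 0.0126) and USP34, which acts on axin in Wnt signalling, by 0.40 (adjusted p = 0.0154). USP38 read 9.15 and 9.23 on the shCtrl arrays against 8.0 and 8.22, a fall of 1.08 (SE 0.12, adjusted p = 0.000469), or 2.11-fold lower.

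USP39, USP53 and USP54 were listed together, and all 3 were called in T47D, beside 29.1% of all genes tested. USP54 went from 8.98 and 8.91 to 10.80 and 10.71, a rise of 1.81 (SE 0.12, adjusted p = 5.35e-05) or 3.52-fold. USP53, a protein of cell junctions, read 10.30 and 10.68 with shCtrl and 11.21 and 11.20 with shXBP1 (0.71, SE 0.17, adjusted p = 0.0161). USP39, a splicing factor whose USP fold lacks the catalytic residues, fell from 9.14 and 9.19 to 8.27 and 8.32 (-0.87, SE 0.10, adjusted p = 0.000641). The ISG15-cleaving enzyme gene USP18 was at 0.28 (adjusted p = 0.108). The proteasome-bound USP14 was at -0.23 (adjusted p = 0.0719) and USP5, which disassembles free ubiquitin chains, at 0.02. Of the 3 members listed under the germline (USP26, USP29 and USP9Y, the last on the Y chromosome) 0 passed limma's test in either line, with 0 at an unadjusted p under 0.05. Their means over the 8 arrays were 4.03, 4.37 and 3.48, below the median of all probe sets. At such dim levels the test cannot tell an unchanged transcript from an absent one.

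**Figure D2:**
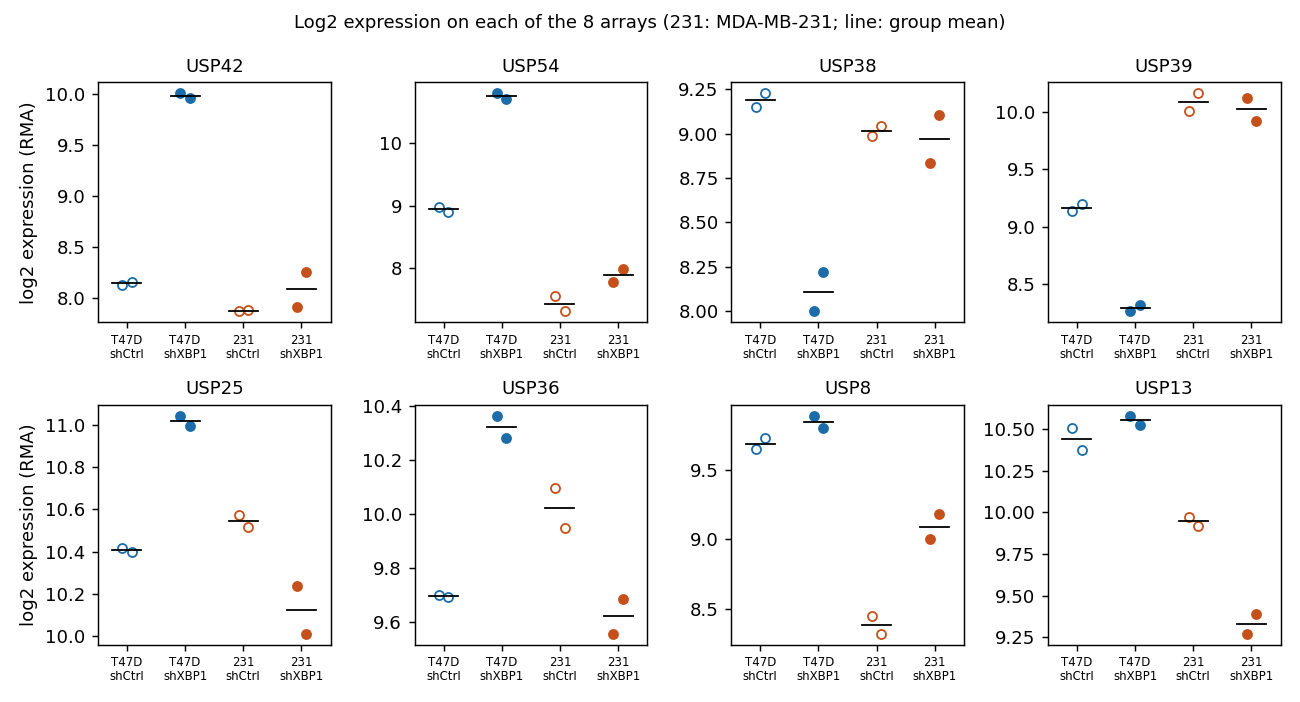
Log2 expression (y axis, RMA, scales differ) of 8 USP genes on each of the 8 arrays, with a line at each group mean; open points are shCtrl and filled points shXBP1, blue T47D and orange MDA-MB-231. USP42 and USP54 are highest in T47D shXBP1, USP25 and USP36 move in opposite directions in the 2 lines, and USP8 goes from 8.44 and 8.32 up to 9.0 and 9.18 in MDA-MB-231.

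Of the 18 T47D calls 7 were lost when at least 1 array was left out, among them all 5 with a change under 0.5 in size. Without T47D shXBP1 replicate 1 the count fell from 18 to 11, and without T47D shCtrl replicate 1 to 12. USP12 was lost without any of the 4 T47D arrays or either MDA-MB-231 shCtrl array (adjusted p 0.0506 to 0.184) and USP34 without any of the 4 T47D arrays (0.0521 to 0.104). USP16 (0.0533 to 0.0562) and USP53 (0.076 to 0.0983) were lost without shCtrl replicate 1 or either shXBP1 array. USP28 (0.0642 and 0.0575) and USP9X (0.0757 and 0.0927) were lost without shCtrl replicate 1 or shXBP1 replicate 1, and USP48 without shCtrl replicate 2 (0.0564) or shXBP1 replicate 1 (0.0666). The other 11 calls (USP2, USP3, USP25, USP31, USP36, USP38, USP39, USP40, USP42, USP47 and USP54) passed without any single array.

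In MDA-MB-231, 3 USP genes rose after XBP1 knockdown and 7 fell, and 36 did not pass. This is 21.7% of members beside 17.2% of all genes tested, of which 10.6% rose and 6.68% fell. The median change of the members was -0.076, against 0.030 for all genes. The shCtrl and shXBP1 arrays did not overlap for 34 of the 46 members, beside 54.5% of all genes. A difference between the 3' and 5' probe sets of ACTB, a measure of RNA quality, was 1.3 and 1.21 on the shCtrl arrays of this line and 0.893 and 1.10 on the shXBP1 arrays. In T47D it was 1.03 and 0.971 against 0.973 and 1.26, and the part of RNA quality in these results was not tested.

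Of the nuclear group 1 gene rose and 2 fell in MDA-MB-231, or 27.3% beside 17.2% of all genes tested. USP49, a histone H2B deubiquitinase, read 5.97 and 5.83 with shCtrl and 6.68 and 6.70 with shXBP1 (0.79, SE 0.11, adjusted p = 0.00308), from a control level near the median of all probe sets. Its mean over 7 probe sets was at 0.06 (adjusted p = 0.71). USP22 fell from 10.62 and 10.59 to 9.98 and 10.26 (-0.48, SE 0.11, adjusted p = 0.0204), and its other 3 probe sets were dim. USP36 fell from 10.10 and 9.95 to 9.56 and 9.69 (-0.40, SE 0.10, adjusted p = 0.0266). USP42, the gene that rose most in T47D, read 7.87 and 7.88 against 7.92 and 8.25 (0.21, adjusted p = 0.287). Its second probe set, nearly as bright, fell by 0.46 (SE 0.12, adjusted p = 0.0367 over all probe sets).

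The repair and cell cycle group had 3 falls and 0 rises in MDA-MB-231 (4 at an unadjusted p under 0.05 in limma). The share called was 33.3%, beside 17.2% of all genes tested. USP28, at an unadjusted p under 0.05 but not called, went the other way at 0.44 (adjusted p = 0.126). Its other probe sets were at 0.63 (adjusted p = 0.00997 over all probe sets) and -0.28 (adjusted p = 0.137). On the last of these the knockdown effect differed from that in T47D by -0.91 (adjusted p = 0.00447), against -0.35 (adjusted p = 0.347) on the one used. USP46, another partner of WDR48, fell from 8.90 and 8.74 to 7.52 and 8.23 (-0.95, SE 0.20, adjusted p = 0.0179), and its 2 knockdown arrays differed widely. USP13 went from 9.97 and 9.92 to 9.27 and 9.39 (-0.61, SE 0.09, adjusted p = 0.00408). Both other USP13 probe sets fell as well, by 0.83 and 0.43. USP1 fell from 13.17 and 13.09 to 12.79 and 12.78 (-0.35, SE 0.09, adjusted p = 0.0324), and its second probe set by 1.01 (SE 0.11, adjusted p = 0.000751 over all probe sets).

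Of the membrane group USP8 rose and USP25 fell in MDA-MB-231, or 28.6% of the group beside 17.2% of all genes tested. USP8, which rescues receptors from lysosomal sorting on endosomes, read 8.44 and 8.32 with shCtrl and 9.0 and 9.18 with shXBP1 (0.71, SE 0.10, adjusted p = 0.0032). USP25 went from 10.57 and 10.52 to 10.24 and 10.01 (-0.42, SE 0.10, adjusted p = 0.0257). In the signalling group USP34 fell from 10.53 and 10.51 to 9.97 and 10.15 (-0.46, SE 0.09, adjusted p = 0.0145) and 0 of 10 rose. The share called in that group was 10%, below that of all genes. USP9X was at -0.32 (adjusted p = 0.0525). USP54 rose from 7.56 and 7.31 to 7.79 and 8.0 (0.45, SE 0.12, adjusted p = 0.0363). USP39 (-0.06) and USP53 (0.00) did not pass, nor did USP18 at 0.23 (adjusted p = 0.230), USP14 at -0.23 (adjusted p = 0.101), USP19 at -0.35 (adjusted p = 0.165) or USP7 at -0.09 (adjusted p = 0.645). USP20, USP30 and USP33 lay between -0.13 and 0.22.

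These calls were less stable than their count shows. With only the 4 MDA-MB-231 arrays in the fit 3 calls were left (USP8, USP13 and USP49), and without MDA-MB-231 shCtrl replicate 1 the count was 5, of which 4 were among the original 10. It was 6 without shCtrl replicate 2, shXBP1 replicate 1 or either T47D shXBP1 array. Without shCtrl replicate 1 the adjusted p was 0.138 for USP1, 0.0839 for USP22, 0.108 for USP25, 0.0677 for USP34, 0.131 for USP36 and 0.0864 for USP46. Without shXBP1 replicate 1 it was 0.0931 for USP1, 0.0743 for USP22, 0.0658 for USP34 and 0.113 for USP36, and USP46 was at -0.59. USP1 was lost without any of the 8 arrays (0.0546 to 0.138). USP54 was lost without any T47D array (0.0581 and 0.0662) or without shCtrl replicate 2 (0.149) or shXBP1 replicate 2 (0.141). USP22 was also lost without shCtrl replicate 2 (0.0655), USP25 without shCtrl replicate 2 (0.0671), shXBP1 replicate 2 (0.0857) or either T47D shXBP1 array (0.0535), and USP36 without either of the latter (0.0531).

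The knockdown effect differed between the lines for 20 USP genes, 43.5% of members beside 24.8% of all genes. It was lower in MDA-MB-231 than in T47D for 16 members and higher for 4, while among all genes 11.8% were lower and 13.0% higher. The median difference of the members was -0.253, against 0.052 for all genes. USP42 differed most, by -1.63 (SE 0.17, adjusted p = 0.000573), then USP54 by -1.36 (SE 0.17, adjusted p = 0.00119), the latter with a rise in both lines that was larger in T47D. USP31 differed by -1.06, USP3 by -1.04 and USP25 by -1.03. USP46 differed by -1.12 on its brightest probe set but by -0.04 (adjusted p = 0.944 over all probe sets) on the next brightest, and by -0.17 (adjusted p = 0.608) with the mean over its 4. The differences of USP22 (-0.04, adjusted p = 0.853), USP48 (0.05, adjusted p = 0.829) and USP51 (-0.24, adjusted p = 0.386) did not pass with the mean over probe sets either. The other probe sets of USP1 (-0.97, adjusted p = 0.0032 over all probe sets) and USP40 (-0.91, adjusted p = 0.00965) also gave a called difference. For USP2 the others gave -1.84 (adjusted p = 0.0032), -0.59 (adjusted p = 0.0314) and -0.30 (adjusted p = 0.243). The 4 with a higher effect in MDA-MB-231 were USP38 (1.03, SE 0.17, adjusted p = 0.00421), USP39 (0.81, SE 0.15, adjusted p = 0.00634), USP48 (0.61, adjusted p = 0.0122) and USP8 (0.55, adjusted p = 0.0274). USP38 and USP39 fell in T47D and were at -0.05 and -0.06 in MDA-MB-231. The USP46 difference was lost without any of the 4 T47D arrays or MDA-MB-231 shCtrl replicate 1 (adjusted p 0.0665 to 0.0814), USP48 without T47D shXBP1 replicate 1 (0.0556), and USP8 without any T47D array or MDA-MB-231 replicate 2 of either hairpin (0.0553 to 0.102). The differences of USP1, USP2, USP22, USP40 and USP51 were also lost without at least 1 array (highest adjusted p 0.111, 0.13, 0.0892, 0.132 and 0.11). Without T47D shXBP1 replicate 1 the count was 12 and without replicate 2 it was 13.

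USP25, USP34 and USP36 were called up in T47D and down in MDA-MB-231. Across all genes 8.66% were called in both lines, 5.25% in the same and 3.41% in opposite directions. The 4 members called in both were these 3 and USP54. The difference between the lines passed without any single array for USP25 (-0.92 to -1.15), USP34 (-0.77 to -0.94) and USP36 (-0.95 to -1.10). The probe sets not used for the calls give a second reading of the same RNA. For USP25, 3 of the 4 others also rose in T47D and fell in MDA-MB-231, the largest by 1.60 (SE 0.11) and -1.41 (SE 0.11), and the last, a dim one, did not pass in either line. For USP36, 2 of 4 others did the same (0.79 and -0.77, and 0.44 and -0.74). The brightest of these others did not pass in either line (0.02 in T47D and -0.36 in MDA-MB-231), and a dim one fell by 1.27 in MDA-MB-231 alone. For USP34, 2 of 5 others did so (0.70 and -0.60, and 0.55 and -1.06). The brightest of the others was flat, at 0.06 in T47D and 0.08 in MDA-MB-231. Another rose by 0.53 in T47D alone, and a dim one did not pass in either line.

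**Figure D3:**
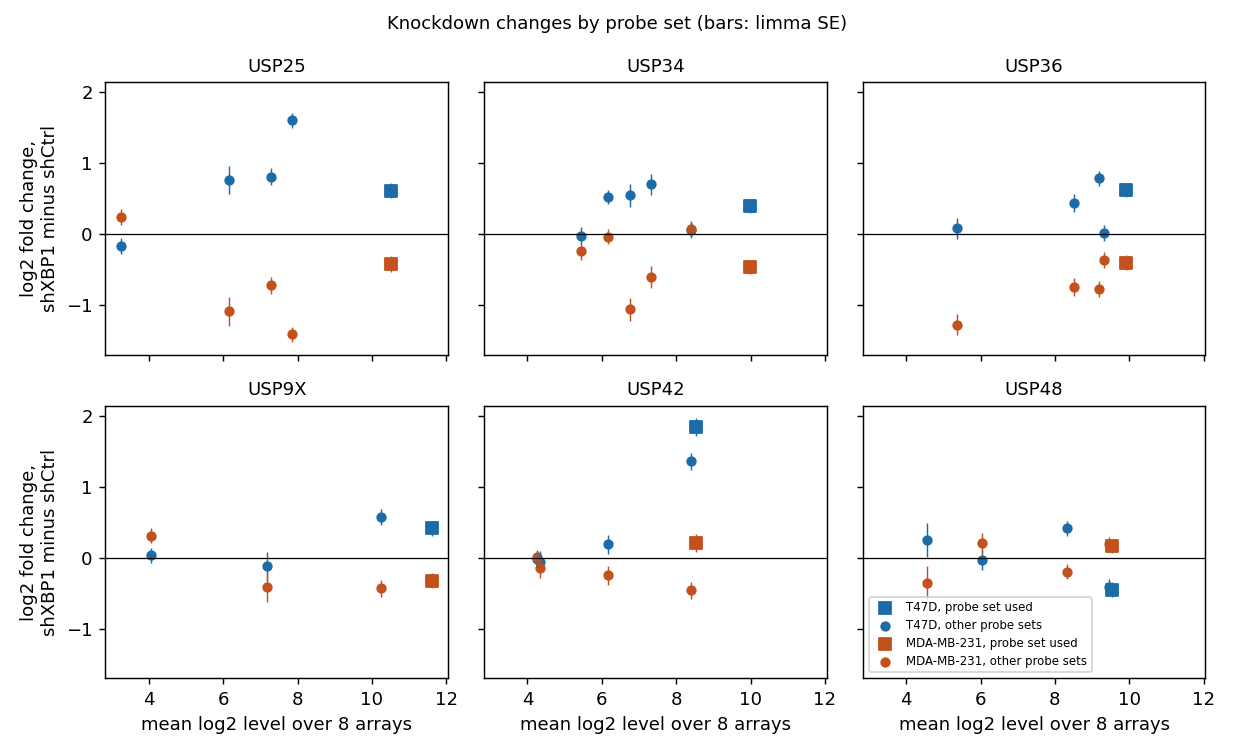
Knockdown change (y axis, log2, limma SE as bars) against the mean log2 level over 8 arrays (x axis) for every probe set of 6 USP genes, blue T47D and orange MDA-MB-231, squares the probe set used. The brighter probe sets of USP25 separate the lines on both sides of 0, those of USP42 give 1.84 and 1.36 in T47D, and the 3 brightest of USP48 give -0.45, -0.41 and 0.41 in T47D.

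Probe sets of other members added detail or disagreed. Among T47D calls with several probe sets, 15 of 16 had another one called in the same direction, and in MDA-MB-231 6 of 9. USP42 rose by 1.36 (SE 0.12) in T47D on its second probe set, and its other 3, at means between 4.27 and 6.16, did not pass, so the mean over all 5 gave 0.66. For USP48, 1 other probe set fell with the one used (-0.41) and another rose by 0.41 (SE 0.10, adjusted p = 0.0206 over all probe sets), and the gene mean was -0.05 (adjusted p = 0.761). USP38 had a second probe set at -1.02 in T47D and a dim one at -0.05 (mean -0.72). USP9X had a second at 0.58 in T47D and -0.43 in MDA-MB-231, both called, although the mean over its 4 was 0.23 in T47D (adjusted p = 0.131). USP14 did not pass on its brightest probe set, but the other 2 fell in T47D by 0.90 (SE 0.11, adjusted p = 0.000601) and 0.73, and 1 of them fell in MDA-MB-231 by 0.74. Its mean over probe sets passed in both lines, at -0.62 (adjusted p = 0.00182) and -0.50 (adjusted p = 0.0103). USP30 did not pass in T47D on its brightest probe set, but its other one rose there by 0.47 (SE 0.14, adjusted p = 0.0395) and differed between the lines by -0.78 (adjusted p = 0.0237). USP19 likewise had a second probe set that fell in both, by 0.50 (adjusted p = 0.00695) and 0.41 (adjusted p = 0.0249). Probe sets of USP47 went opposite ways in MDA-MB-231, at -0.66 and 0.66, both called. USP16 had one that fell there by 0.69 (adjusted p = 0.00375 over all probe sets), where the one used was at 0.20. One of USP7 fell in MDA-MB-231 by 0.48 (adjusted p = 0.0158), where the one used was at -0.09 and the others at -0.11 and -0.08. On that probe set the knockdown effect differed between the lines by -0.58 (adjusted p = 0.0242). For USP53, 2 others rose by 1.18 and 1.07 in T47D, and a dim one did not pass. These 2 also differed between the lines (-1.28 and -0.77, both called), while the one used did not pass (-0.71). A dim probe set of USP46 fell in T47D by 0.91 (adjusted p = 0.00752 over all probe sets), where the one used was at 0.18 and the others at -0.36 and 0.05, not called. With the mean over probe sets USP22 was at -0.08 and USP46 at -0.43 in MDA-MB-231, neither called, and USP1 (-0.68), USP25 (-0.68) and USP36 (-0.71) fell further.

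With the control hairpin, 30 of 46 USP genes differed between the lines, 19 higher and 11 lower in MDA-MB-231 (65.2%). Among all genes 49.0% differed, 23.7% higher and 25.2% lower. The 2 groups did not overlap for 40 of the 46 members, beside 71.0% of all genes. These are differences between stressed cells of 2 lines and not responses to a treatment.

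Members higher in MDA-MB-231 were led by USP33, which read 9.63 and 9.78 in T47D and 11.56 and 11.50 in MDA-MB-231 (1.83, SE 0.10, adjusted p = 2.4e-06), or 3.55-fold. USP1 went from 11.48 and 11.52 to 13.17 and 13.09 (1.63, SE 0.09, adjusted p = 2.09e-06), and WDR48, its activator, was also higher, by 0.95. USP45, of nucleotide excision repair, read 4.53 and 4.81 against 6.43 and 6.03 (1.56, SE 0.18, adjusted p = 0.000159), from a dim level, and its mean over probe sets was 0.76. USP24 was higher by 1.36 (SE 0.12), with 1 other probe set higher by 1.51 and another lower by 0.45 (gene mean 0.81). USP34 was higher by 1.06 and USP39 by 0.92. USP5 (0.86), USP19 (0.80), USP18 (0.70) and USP14 (0.51) were also higher.

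Members lower in MDA-MB-231 were led by USP53, at 10.30 and 10.68 in T47D against 8.83 and 8.38 (-1.89, SE 0.17, adjusted p = 3.84e-05), with 2 other probe sets at -2.73 and -2.14. USP54 was lower by 1.51 (SE 0.12, adjusted p = 1.63e-05). USP8 read 9.65 and 9.73 against 8.44 and 8.32 (-1.30, SE 0.10, adjusted p = 1.52e-05), and its rise after knockdown in MDA-MB-231 left it at 9.09 on average, below the 9.69 of T47D shCtrl. USP30, which opposes parkin-driven mitophagy, was lower by 1.29 (SE 0.09, adjusted p = 8.79e-06). USP7 was lower by 1.20 (0.71 with the mean over its 4 probe sets). USP20, the close relative of USP33, read 7.76 and 7.87 against 6.64 and 6.89 (-1.05, SE 0.12, adjusted p = 0.000146), so this pair stood in opposite directions between the lines. USP22, USP25, USP38, USP42 and USP46 did not pass. A dim probe set of USP46, at a mean of 5.31, was lower in MDA-MB-231 by 1.01 (adjusted p = 0.0019 over all probe sets), where the one used was at 0.00. Leaving out single arrays gave 23 to 31 calls, and the calls of USP2, USP9X, USP21, USP36, USP43, USP44, USP49 and USP51, at sizes of 0.25 to 0.58, were lost without at least 1 shCtrl array (highest adjusted p 0.0761, 0.145, 0.15, 0.124, 0.189, 0.108, 0.195 and 0.184).

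**Figure D4:**
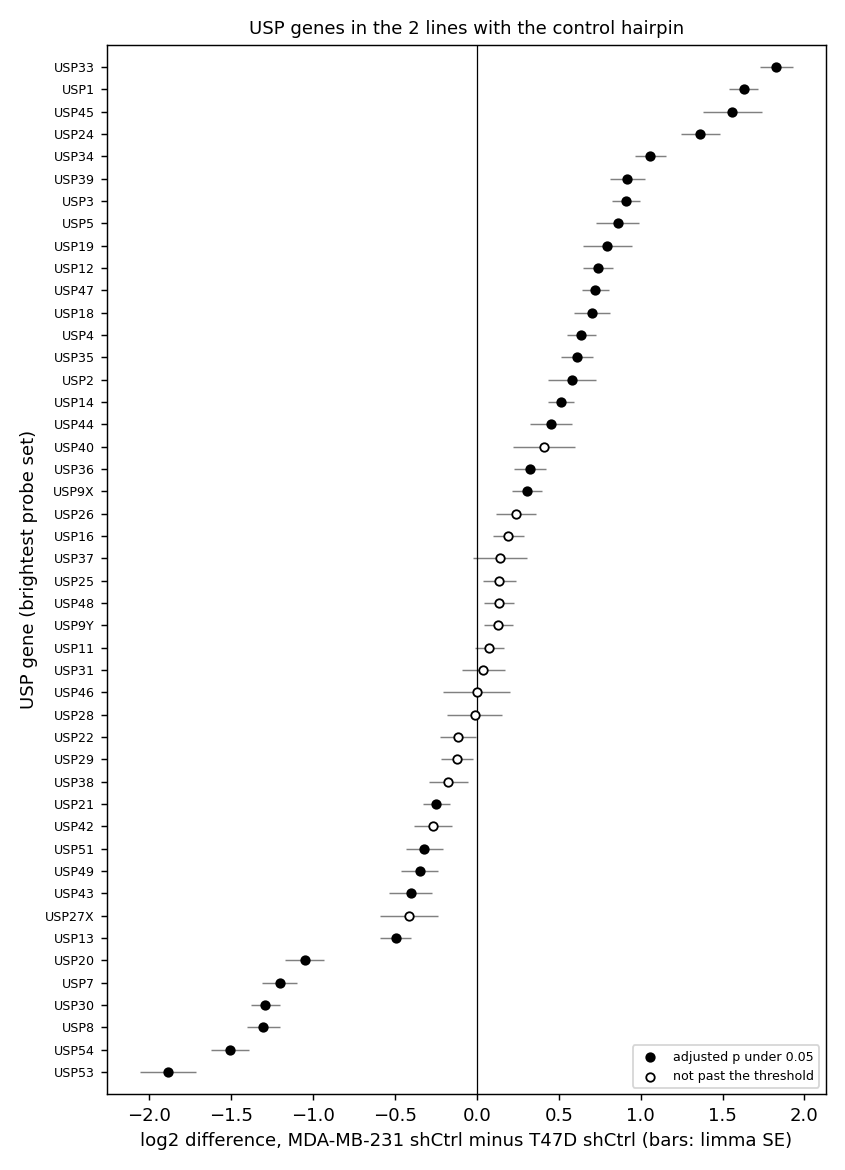
Log2 difference between the lines with the control hairpin (x axis, MDA-MB-231 minus T47D, limma SE as bars, 2 arrays per group) for the 46 USP genes in order of the difference; filled points have an adjusted p under 0.05. Values run from -1.89 for USP53 to 1.83 for USP33, with 19 filled points to the right of 0 and 11 to the left.

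Of 39 measured genes of the OTU, UCH, Josephin, JAMM, MINDY and ZUP1 families and of USP-fold genes with other names, 12 rose and 7 fell in T47D (median 0.119), while 20 did not pass. This is 48.7%, beside 29.1% of all genes tested. In MDA-MB-231 4 rose and 1 fell (median 0.056), or 12.8% beside 17.2% of all genes. In T47D the OTU family had 8 rises and 3 falls among 14, or 78.6%. The rises were led by YOD1, which works with the p97 ATPase in ER-associated degradation (2.07, SE 0.10, adjusted p = 1.97e-05), TNFAIP3, the NF-kB inhibitor (1.04) and OTUD4 (0.95). In MDA-MB-231 OTUD6B rose by 1.27 and OTUD1 by 0.64 while OTULIN fell by 0.67, or 21.4% of the OTU family. The genes listed under the JAMM family, not all of them proteases, had 2 rises and 3 falls among 11 in T47D (45.5%). The falls were COPS6 (-0.62), the proteasome subunit PSMD14 (-0.57) and BRCC3 (-0.56), and the rises MYSM1 (0.56) and EIF3F (0.27). In MDA-MB-231 STAMBP alone was called (0.39), or 9.09%. Of 4 Josephin genes JOSD1 rose by 1.12 in T47D and ATXN3 by 0.66 in MDA-MB-231, or 25% in each line. Of 3 UCH genes UCHL5 rose by 0.35 and UCHL1 fell by 0.51 in T47D (66.7%), and 0 passed limma's test in MDA-MB-231 (1 at an unadjusted p under 0.05). Of 4 MINDY and ZUP1 genes 0 passed in either line (0 and 1 at an unadjusted p under 0.05), nor did any of CYLD, PAN2 and USPL1 (1 and 0).

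Partner genes are given beside the enzymes they bind. Of 10, 3 rose and 1 fell in T47D, and 2 rose and 2 fell in MDA-MB-231, which is 40% in each line beside 29.1% and 17.2% of all genes. STAM, an endosomal adaptor that binds USP8, rose by 1.38 (SE 0.13, adjusted p = 0.00062) in MDA-MB-231, where USP8 rose, and its relative STAM2 rose by 0.97 in T47D and 0.39 in MDA-MB-231. ATXN7, which anchors the deubiquitinating module of USP22 in SAGA, rose by 0.55 in T47D and fell by 0.54 in MDA-MB-231, and ATXN7L3 rose by 0.47 in T47D. GMPS, a partner of USP7, fell by 0.40 in T47D. SART3, which recruits USP4 to the spliceosome, fell by 0.43 in MDA-MB-231. WDR48 and WDR20, the activators of USP12 and USP46, lay between -0.05 and 0.23 in both lines and did not pass.

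Of the ubiquitin supply genes, 3 of 6 had a probe set of their own. UBA1, the main ubiquitin-activating enzyme, fell by 1.06 (adjusted p = 8.37e-05) in T47D and was at -0.17 in MDA-MB-231, UBA6 rose by 0.30 in T47D, and UBB did not pass. Of these genes 66.7% were called in T47D and 0% in MDA-MB-231, beside 29.1% and 17.2% of all genes tested. In the ISG15 pathway, 3 of 4 genes other than USP18 were measured. ISG15, the ubiquitin-like protein that USP18 removes, rose by 1.63 in MDA-MB-231 and its ligase HERC5 by 0.63, while USP18 read 7.39 and 7.54 against 7.62 and 7.76 and did not pass. In T47D the conjugating enzyme gene UBE2L6 fell by 1.61. Of 6 leukocyte markers 0 passed limma's test in either knockdown comparison (0 in T47D and 2 in MDA-MB-231 at an unadjusted p under 0.05), and of 6 fibroblast markers COL1A1 alone rose, in T47D. The luminal markers had 2 rises and 3 falls in T47D and 1 rise in MDA-MB-231, and the mesenchymal markers 4 falls in T47D and 2 rises and 1 fall in MDA-MB-231. In T47D the share called was 62.5% of luminal, 57.1% of mesenchymal and 16.7% of fibroblast markers, beside 29.1% of all genes tested. In MDA-MB-231 the luminal and mesenchymal shares were 12.5% and 42.9%, beside 17.2% of all genes tested.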

How the data were processed

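RNA from 8 samples was measured on one-colour Affymetrix arrays, and the table deposited by the authors holds log2 values for each probe set. RMA and affy 1.30.0 are named in the submitters' processing notes. The sources used here do not say whether all arrays were normalized as 1 set. RMA compresses folds of dim probe sets. Values were used as deposited, without filter. Probe sets were named through the platform annotation supplied for this array: 41091 carried 1 gene symbol, 1801 several, and the latter were not used. Each gene took its brightest probe set, giving 19775 genes.

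limma 3.58.1 in R 4.3.3 (lmFit, eBayes) fitted the 4 group means with 1 spread per gene and 4 residual degrees of freedom (7.61 after moderation). Tests were two-sided, with Benjamini-Hochberg adjustment over all genes and a threshold of 0.05. The number of arrays limits the precision: the median SE of a knockdown change was 0.119, and 0.168 for the difference between the lines. No list was tested as a set. The members and lists were chosen with earlier results of these data known. The text names up to 8 called members each way per knockdown comparison and up to 6 for the other comparisons. Another set of 11 members was named whatever their values. Up to 3 called genes per other list and knockdown comparison were planned, and for some lists more are named. Further USP genes were named after their values were seen. Alternatives are given in the closing section.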

Additional observations from a re-analysis of the deposited data

Results flagged for a closer look

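The knockdown effect differed between the lines, by the test of the difference itself in limma, for 20 USP genes, each given here on the log2 scale with the T47D effect subtracted. It was lower in MDA-MB-231 for USP42 (-1.63), USP54 (-1.36), USP46 (-1.12), USP31 (-1.06), USP3 (-1.04), USP25 (-1.03), USP36 (-1.02), USP40 (-0.91), USP34 (-0.86), USP9X (-0.74), USP47 (-0.73), USP13 (-0.72), USP2 (-0.69), USP22 (-0.60), USP51 (-0.58) and USP1 (-0.48). It was higher for USP8 (0.55), USP48 (0.61), USP39 (0.81) and USP38 (1.03). With the mean over probe sets the differences of USP46 (-0.17), USP22 (-0.04), USP48 (0.05) and USP51 (-0.24) no longer passed. USP51 passed in neither line alone (0.31 in T47D and -0.27 in MDA-MB-231).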

How the results depend on the processing

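For the 18 T47D calls, 11 passed under every alternative tried, as did 2 of 10 in MDA-MB-231 (USP8 and USP13), 12 of 20 for the difference of effects and 22 of 30 between the lines. The counts ranged from 11 to 19 (T47D), 5 to 9 (MDA-MB-231), 12 to 18 (difference) and 23 to 31 (lines) when single arrays were left out; a group left with 1 array is assumed to vary like the others. With only the arrays compared the MDA-MB-231 count was 3. The sign of a called value reversed once: USP49 between the lines was at 0.075 with the mean over probe sets. With the replicate number as a block the counts were 17, 8, 18 and 28, and it lost USP12 in T47D, USP1 and USP54 in MDA-MB-231, USP2 and USP40 for the difference, and USP21 and USP49 between the lines. Across all genes same-numbered arrays did not deviate together (correlations of -0.069 to 0.038 between groups). The labels do not say what a shared number stands for, and whether some genes share a batch was not tested. Without dim genes the counts were 20, 14, 21 and 27 of 40 members tested, with trend and robust fitting 19, 15, 20 and 29, with the mean over probe sets 17, 9, 20 and 32, with each probe set tested 17, 10, 19 and 28, and with quantile normalization again 17, 11, 19 and 30. The cause of these differences was not tested. Quantile normalization again moved the median of all genes by -0.0206 to 0.0164. Background correction could not be varied from these values, and 6 members lay below the median of all probe sets.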
